A study of Mus musculus with 6 samples.

Results

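The 10 genes Cdh1, Epcam, Cdh2, Vim, Fn1, Zeb1, Zeb2, Snai1, Snai2 and Twist1 are the usual markers of the epithelial and the mesenchymal state, and were taken by symbol from the 13730 genes of the deposited count table, where all 10 were found. They were followed in 6 mammary tumors of C0321, a mouse triple-negative breast cancer (TNBC) line, in a control group of 3 and an SS group of 3. The questions were where these tumors lie between both states, and whether SS moved them.

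C0321 came from a mammary tumor of an Lfng-/- mouse, and the study describes it as mesenchymal and claudin-low. It is 1 line, so that all tumors share its genotype, labelled as lacking Lfng. For each tumor, 1000000 cells in Matrigel and PBS were placed in the mammary fat pad of a female FVB mouse aged 6 to 10 weeks, a host with its own gland, fat, vessels and immune system. SS was given by mouth at 60 mg/kg every day for 14 days from the time a mass could be felt. The labels call SS sulindac sulfate, while the study calls it sulindac sulfide, a metabolite of the anti-inflammatory drug sulindac that alters γ-secretase, the protease that activates Notch. Control mice received saline or vehicle, depending on the source. Nothing in the labels ties a tumor to a litter, cage or day, so the p-values measure only the spread between these tumors.

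Epithelial cells are held to each other by E-cadherin, the product of Cdh1, at adherens junctions, and carry keratin filaments. In the epithelial-mesenchymal transition (EMT) the transcription factors of the Zeb, Snail and Twist families repress Cdh1 and other junction genes, the Zeb and Snail factors through E-box motifs in their promoters. Cells then gain vimentin filaments, fibronectin matrix and often N-cadherin, and become motile. The claudin-low subtype of breast cancer is known for low levels of junction genes and high levels of this mesenchymal set.

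The sequences that the isoform and promoter results rest on are given first. Fibronectin messages differ by inclusion of the extra domain A and extra domain B exons, which are largely left out of the plasma protein made by liver and kept in the matrix of embryos, wounds and tumors. The exons were read from GRCm38 on the minus strand, whole and in lower case. Extra domain A is 270 bases at chr1:71603660-71603929 and extra domain B 273 bases at chr1:71613763-71614035.
Fn1 extra domain A: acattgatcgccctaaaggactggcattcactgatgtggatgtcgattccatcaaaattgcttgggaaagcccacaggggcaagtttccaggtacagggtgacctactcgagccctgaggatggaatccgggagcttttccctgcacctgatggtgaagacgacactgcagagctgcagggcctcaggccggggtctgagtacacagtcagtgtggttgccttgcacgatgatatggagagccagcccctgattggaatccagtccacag
Fn1 extra domain B: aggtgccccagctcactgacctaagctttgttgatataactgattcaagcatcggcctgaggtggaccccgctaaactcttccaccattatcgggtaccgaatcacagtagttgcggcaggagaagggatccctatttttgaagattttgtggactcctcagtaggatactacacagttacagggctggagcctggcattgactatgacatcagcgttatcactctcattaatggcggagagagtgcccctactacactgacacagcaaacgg
The promoter of Epcam, the epithelial member with a promoter in the RefSeq table, is the 250 bases before its start at chr17:87635729-87635978 on the plus strand of GRCm38.p6, with E-box letters in capitals.
Epcam promoter: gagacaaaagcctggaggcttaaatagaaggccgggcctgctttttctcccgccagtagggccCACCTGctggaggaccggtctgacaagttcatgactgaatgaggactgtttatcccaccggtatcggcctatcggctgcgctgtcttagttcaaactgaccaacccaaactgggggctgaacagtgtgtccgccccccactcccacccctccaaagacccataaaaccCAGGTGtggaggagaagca

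Libraries held between 8468914 and 24441522 counts, and levels are given as counts per 1000000 counts (CPM) with TMM scaling. Log2 CPM of tumor pairs correlated across genes at between 0.93 and 0.97, with no separation of the groups. Markers of the tissue around the tumor differed strongly between tumors. Summed over 8 genes, skeletal muscle markers ranged from 1141 to 11394 CPM in control and from 345 to 23802 CPM in SS tumors. The 11 adipocyte markers measured ranged from 20.7 to 259 CPM and from 68.3 to 154 CPM. Of 16 genes of luminal cells and milk, 9 were measured. The receptor genes whose proteins define TNBC by their absence were at 4.47 to 6.40 CPM for Esr1, 0 to 3.81 CPM for Pgr and 17.0 to 22.3 CPM for Erbb2, and Lfng itself was counted at 4.64 to 6.40 CPM in every tumor, which goes against a complete absence of its message. The host mice were not described as lacking Lfng, counts per gene do not show where in the gene the reads lie, and the source of these reads was not tested. In bulk tumors such as these, fewer cells of a type cannot be told apart from less RNA per cell.

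To compare genes with each other, levels were divided by transcript length. In CPM per kilobase, over all 6 tumors, Vim stood at 3266 ± 458 (SD, n = 6), rank 19 of the 13545 genes with a length. Fn1 followed at 620 ± 111, Zeb2 at 140 ± 11.97, Twist1 at 35.7 ± 4.86 and Zeb1 at 33.9 ± 5.33. These are the vimentin and fibronectin genes and 3 EMT transcription factors, and each was above at least 88.9% of genes. Snai2 was at 5.68 ± 1.64, above 62.5% of genes. The 4 others were lower, with Cdh1 at 1.21 ± 0.506, Cdh2 at 0.815 ± 0.248, Epcam at 0.474 ± 0.560 and Snai1 at 0.391 ± 0.197, so that between 22.9% and 38.2% of genes lay below them. Neighbours in this order were separate in every tumor from Vim down to Twist1 and from Zeb1 down to Cdh1, whereas the ranges of Twist1 and Zeb1 overlapped, as did those of Cdh1 and Cdh2, Cdh2 and Epcam, and Epcam and Snai1.

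**Figure D1:**
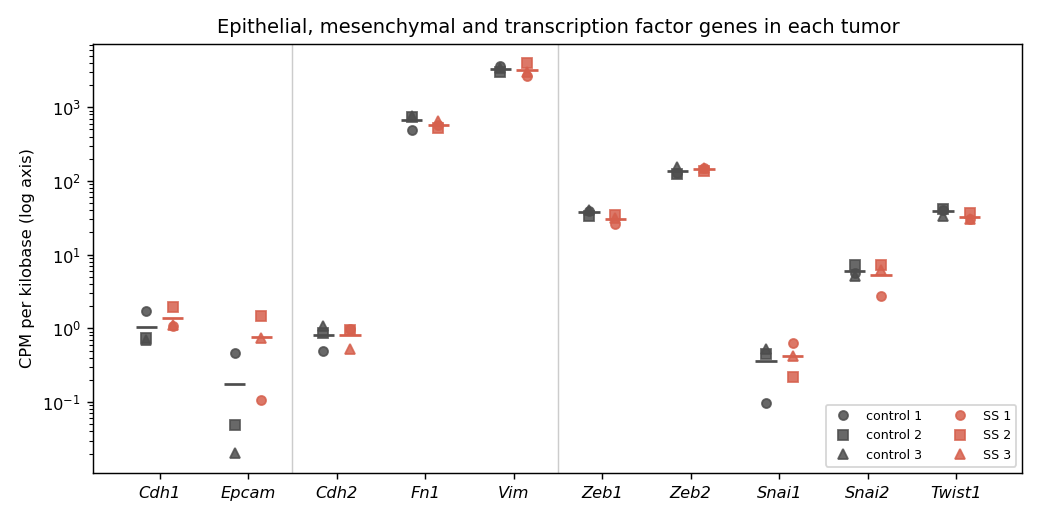
Level of each of the 10 genes in each tumor, in CPM per kilobase on a log axis, with control tumors in grey, SS tumors in red, a symbol for each replicate number and a bar at each group mean. Vim, Fn1 and Zeb2 lie far above Cdh1, Epcam, Cdh2 and Snai1 in all 6 tumors, and the groups overlap for every gene.

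By the sum of Vim, Fn1 and Cdh2 over the sum of Cdh1 and Epcam, per kilobase, all 6 tumors lay far on the mesenchymal side. The mesenchymal sum was 1892, 4729 and 5907 times the epithelial sum in control tumors 1, 2 and 3, and 2737, 1308 and 1970 times in SS tumors 1, 2 and 3. By this ratio control tumors 2 and 3 were the most mesenchymal and SS tumor 2 the least, while control tumor 1 lay among the SS tumors. The order mostly followed the epithelial sum, which rests on few counts and ran from 0.705 in control tumor 3 to 3.40 in SS tumor 2. SS tumor 2 also had the highest mesenchymal sum, at 4442 CPM per kilobase, and SS tumor 1 the lowest, at 3249. As log2 of the epithelial over the mesenchymal sum, the balance was -11.87 ± 0.87 in control and -10.91 ± 0.53 in SS tumors (SD, n = 3 each), a difference of 0.97 beside a pooled SD of 0.722 between tumors of a group, with overlapping groups and no test. The position comes from Vim and Fn1 and not from Cdh2, since N-cadherin stayed near E-cadherin, at 0.289, 1.17 and 1.57 times its level per kilobase in control and 0.901, 0.495 and 0.473 times in SS tumors.

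Of the 10 genes, 9 passed the filter on low counts, and for none of these did SS and control tumors differ by the test. Over the 10902 genes in the quasi-likelihood fit of edgeR, 0 genes (0%) passed a Benjamini-Hochberg adjusted p of 0.05, and the 9 had adjusted p-values from 0.776 to 1.00. At an unadjusted p under 0.05 stood 693 genes (6.36%) but 0 of the 9, of which 4 were higher and 5 lower in SS. DESeq2 called 35 of the 6039 genes to which it gave an adjusted p (0.58%), 0 of them among the 6 of these genes that had one, and put 1, Zeb1, at an unadjusted p under 0.05. The groups of CPM did not overlap for 1408 of the genes tested (12.9%), and overlapped for all 10 genes followed here.

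**Figure D2:**
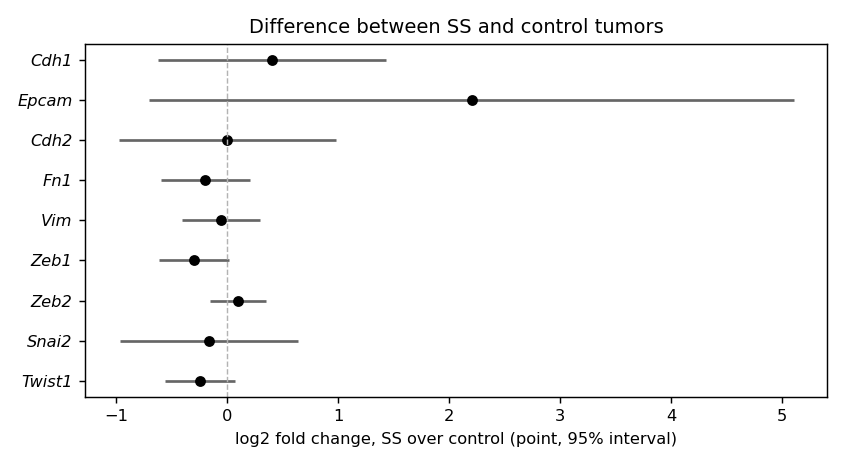
Log2 fold change of SS over control for the 9 tested genes, as a point with its 95% interval from the edgeR fit. Every interval crosses 0, and those of Epcam, Cdh1 and Cdh2 are the widest.

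Cdh1 (chr8:106603350-106670248), which encodes E-cadherin, was low in every tumor. It was at 7.50, 3.29 and 3.03 CPM in control tumors 1, 2 and 3, and at 4.78, 8.58 and 4.90 CPM in SS tumors 1, 2 and 3, from 58 to 95 counts per library. Control tumor 1 and SS tumor 2 were high and control tumors 2 and 3 low. SS over control gave a log2 fold change of 0.41 (SE 0.44, 95% interval -0.62 to 1.43), with an adjusted p of 0.915 by edgeR, so that changes between 0.650-fold and 2.70-fold remain within the interval. Without control tumor 1 the log2 fold change was 0.93 (adjusted p 0.630 by edgeR), and without SS tumor 2 it was 0.083.

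Epcam (chr17:87635979-87651128) encodes the epithelial cell adhesion molecule, and its counts were near the limit of detection in several tumors. There were 12, 2 and 1 counts in control tumors and 3, 25 and 18 counts in SS tumors, or 0.947, 0.0982 and 0.0410 CPM against 0.217, 2.98 and 1.52 CPM. SS tumors 2 and 3 were the highest, and SS tumor 1 lay below control tumor 1. On the log2 scale SS over control was 2.20 (SE 1.25, 95% interval -0.70 to 5.10, adjusted p 0.813 by edgeR), and thus neither a fall to 0.615-fold nor a rise to 34.4-fold lies outside it. It depended on single tumors, with a log2 fold change of 4.35 without control tumor 1 (adjusted p 0.548 by edgeR) and 1.34 without SS tumor 2.

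The genes whose log2 profile over the 6 tumors came closest to that of Cdh1 were Ccdc88c, Abcb9 and Dhrs11, at root mean square differences of 0.0950, 0.0996 and 0.125. For Epcam they were Dio2, Cemip and Gja5, at 0.389, 0.462 and 0.491. With 6 tumors such likeness is a description only.

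Vim (chr2:13574311-13582827), the intermediate filament of mesenchymal cells, was at 7863, 6575 and 7478 CPM in control and 5868, 8610 and 6576 CPM in SS tumors. SS tumors held both the lowest and the highest value. Between the groups the log2 fold change was -0.058 (SE 0.15, 95% interval -0.41 to 0.30).

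Fn1 (chr1:71585473-71653235), which encodes the matrix protein fibronectin, was at 4072, 6079 and 6178 CPM in control and 4695, 4233 and 5293 CPM in SS tumors. Control tumor 1 was the lowest of all, and the other control tumors the highest. SS tumors differed from control by a log2 fold change of -0.20 (SE 0.17, 95% interval -0.60 to 0.20, adjusted p 0.890 by edgeR). Without control tumor 1 it was -0.37, and without control tumor 2, control tumor 3 or SS tumor 2 it was -0.11, -0.098 and -0.13.

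Cdh2 (chr18:16588877-16809247), which encodes N-cadherin, was at 2.37, 4.22 and 5.21 CPM in control and 4.71, 4.64 and 2.53 CPM in SS tumors. Each group held 1 low tumor, control 1 and SS 3. The groups had a log2 fold change of 0.0016 (SE 0.42, 95% interval -0.98 to 0.98), and its sign turned in 6 of the 14 alternative fits. Of the 9 cadherins measured, Cdh11, a cadherin of mesenchymal and bone-forming cells, had the highest level per kilobase, at a mean of 17.98, and stood at 49.4 to 147 CPM.

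Zeb1 (chr18:5591860-5775469), a zinc finger repressor of Cdh1, had the smallest p of the 9. It was at 227, 191 and 233 CPM in control and 149, 198 and 182 CPM in SS tumors. Control tumors 1 and 3 were above all SS tumors, and control tumor 2 lay just below SS tumor 2. Its log2 fold change was -0.30 (SE 0.14, 95% interval -0.62 to 0.013, adjusted p 0.776 by edgeR), with an unadjusted p of 0.0578 that fell under 0.05 in 5 of 14 alternative fits.

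Zeb2 (chr2:44983512-45117443), its paralog, is also expressed by macrophages and other leukocytes. It was at 649, 630 and 767 CPM in control and 755, 679 and 754 CPM in SS tumors, with control tumor 3 and SS tumors 1 and 3 high. Its log2 fold change was 0.096 (SE 0.11, 95% interval -0.16 to 0.35), and lay between 0.042 without control tumor 2 and 0.19 without control tumor 3. The 12 leukocyte and macrophage markers, all of them measured, summed to 1013, 1129 and 1224 CPM in control and 1293, 1038 and 1217 CPM in SS tumors, with the same 3 tumors high. None of these markers was at 0 in any tumor, and Csf1r, the macrophage colony-stimulating factor receptor, stood at 321 to 447 CPM. Their part in the level of Zeb2 was not tested. Zeb2 exceeded Zeb1 per kilobase in all tumors, by 3.29, 3.80 and 3.79 times in control and 5.84, 3.95 and 4.76 times in SS tumors, a ratio chosen after the values were seen in which the groups do not overlap. The length of Zeb2 rests on 2 of its 6 transcripts, and the others, with no length, held between 12.1% and 23.8% of its counts, so that its level per kilobase is approximate.

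Twist1 (chr12:33957671-33959832), a basic helix-loop-helix factor, was at 65.5, 68.2 and 55.3 CPM in control and 49.9, 60.3 and 49.4 CPM in SS tumors. Only SS tumor 2 reached into the control range. The log2 fold change was -0.25 (SE 0.14, 95% interval -0.56 to 0.069, adjusted p 0.803 by edgeR).

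Per kilobase, the Snail genes were the lowest of the 5 transcription factors. Snai2 (chr16:14705859-14709383), which encodes Slug, was at 11.4, 14.5 and 10.5 CPM in control and 5.58, 14.4 and 12.6 CPM in SS tumors. SS tumor 1 was low and the other 5 tumors were alike, with a log2 fold change of -0.16 (SE 0.35, 95% interval -0.97 to 0.64). Snai1 (chr2:167538195-167542812), which encodes Snail, had 2, 15 and 21 counts in control and 14, 3 and 8 counts in SS tumors, or 0.158, 0.736 and 0.861 CPM against 1.01, 0.357 and 0.675 CPM. It did not pass the filter on low counts, and a two-sided exact permutation test on CPM gave p = 0.7, where the smallest p that 3 against 3 tumors allow is 0.1. Fitted without the filter, Snai1 had a log2 fold change of 0.20 (SE 0.85, adjusted p 0.978 by edgeR).

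The form of fibronectin with extra domain A was nearly the only one. Messages with the extra domain A exon printed above made up 99.4% to 99.7% of Fn1 estimated counts in every tumor, and 4 of the 6 transcripts in the table carry it. Extra domain B was on 79.6%, 62.3% and 62.8% of Fn1 counts in control and on 68.6%, 77.1% and 68.1% in SS tumors. Control tumor 1 and SS tumor 2, the tumors highest in Cdh1, also had the highest share of extra domain B. The group means were 68.2% ± 9.86 and 71.3% ± 5.03 (SD, n = 3 each), which differ by less than the spread between tumors. No 95% Wilson interval of a share was wider than 0.874 percentage points, but such intervals cover counting error only, and the division of reads among isoforms is itself estimated.

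For Cd44, whose standard form lacks all 10 variable exons and is typical of mesenchymal cells, the standard form took 97.8%, 96.1% and 91.9% of counts in control and 96.7%, 91.2% and 94.6% in SS tumors. The standard form was thus the main one in all 6 tumors, with group means of 95.3% ± 3.04 and 94.2% ± 2.80 (SD, n = 3 each). Which cells of the tumor it came from was not tested.

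**Figure D3:**
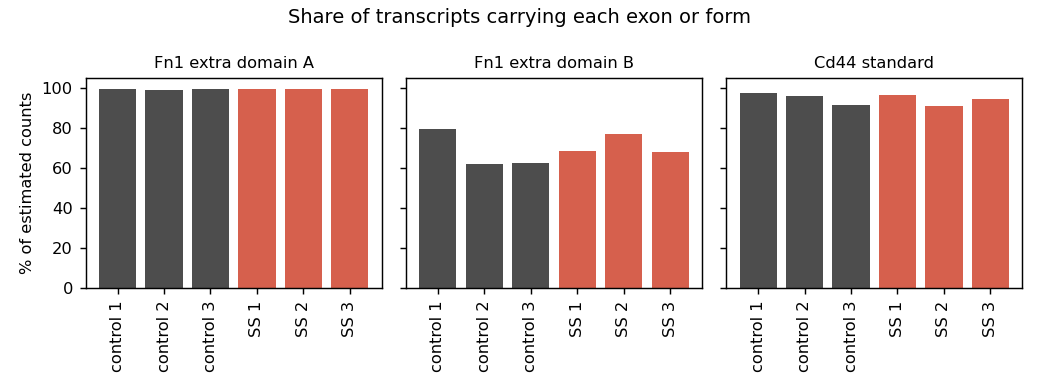
Share of each gene's estimated counts, in percent, on transcripts with extra domain A or B (Fn1) or without variable exons (Cd44), 1 bar per tumor, control grey and SS red. Extra domain A and the standard form of Cd44 are above 90% in all tumors, whereas extra domain B ranges from 62.3% to 79.6%.

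Epithelial genes outside the 10 ranged from steady to variable, with others in between. The genes named here beyond the naming rule were chosen after their values were seen. Of the 9 keratins, Krt8, a keratin of simple epithelia, was the highest per kilobase, at a mean of 238, and was nearly constant at 417 to 544 CPM. The tight junction gene Tjp1 (80.1 to 111 CPM), plakoglobin Jup (33.8 to 51.0 CPM) and the claudin Cldn3 (5.40 to 10.4 CPM) were steady as well. All tumors therefore held keratin message beside very high Vim.

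Krt19, a luminal keratin, was instead at 228, 10.8 and 4.51 CPM in control and 121, 306 and 11.6 CPM in SS tumors. Krt5, a basal keratin, was at 73.0, 1.13 and 1.43 CPM in control and 33.9, 26.7 and 0 CPM in SS tumors. Foxa1, a luminal transcription factor, was at 30.6, 1.03 and 1.15 CPM in control and 24.6, 23.2 and 1.01 CPM in SS tumors. For all 3 genes control tumor 1 and SS tumors 1 and 2 were high, and the other 3 tumors low.

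Some regulators of the epithelial state had the same 3 tumors high. Grhl2, an activator of Cdh1 and other junction genes, was at 4.97, 0 and 0 CPM in control and 2.97, 6.79 and 0 CPM in SS tumors. Esrp1 and Esrp2 are splicing factors of epithelial cells. Esrp1 was at 2.84, 0 and 0.164 CPM in control and 0.870, 5.95 and 0 CPM in SS tumors, and Esrp2 at 1.82, 0 and 0.410 CPM and 0.870, 4.53 and 0 CPM. A count of 0 allows up to 3 counts, or between 0.123 and 0.354 CPM in these libraries. Other regulators did not share this division, among them Klf5 at 69.4, 50.6 and 60.4 CPM in control and 24.6, 42.6 and 51.4 CPM in SS tumors, and Klf4, another Krüppel-like factor, at 16.6 to 31.4 CPM with control tumor 2 the lowest.

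Cdh1 was measured in all 6 tumors, including control tumor 2 with 67 counts and SS tumor 3 with 58 counts, in both of which Grhl2, Esrp1 and Esrp2 were at 0. Epcam did not follow the division either, since SS tumor 3 was its second highest tumor.

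The adipocyte marker Plin1 and the sum of the adipocyte markers were high in the same tumors as Krt19, Krt5 and Foxa1. Plin1, which coats fat droplets, was at 37.7, 0.0982 and 0 CPM in control and 8.05, 14.6 and 0 CPM in SS tumors, and the sum of the 11 adipocyte markers was 259, 38.2 and 20.7 CPM against 137, 154 and 68.3 CPM. Of the 9 luminal and milk genes measured, Prlr, the prolactin receptor, was at 3.87, 0.0982 and 0 CPM in control and 3.70, 7.86 and 0 CPM in SS tumors. Control tumor 1 and SS tumors 1 and 2 were again the highest in the adipocyte sum and in Prlr. The 9 luminal and milk genes summed to 827, 665 and 518 CPM in control and 662, 865 and 497 CPM in SS tumors, most of it Krt8. Among the other adipocyte genes, the lipases Lpl and Lipe ranged from 13.7 to 156 CPM and from 5.41 to 35.1 CPM, Fabp4, a fatty acid binding protein, from 0.0410 to 6.87 CPM and Adipoq, the adiponectin gene, from 0 to 0.595 CPM, and 6 of the 11 were at 0 in at least 1 tumor. Elf5, a luminal transcription factor, was at 2.84, 0 and 0 CPM in control and 2.25, 0.834 and 0 CPM in SS tumors. Their part in the levels of Cdh1, Krt19 or Esrp1 was not tested.

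**Figure D4:**
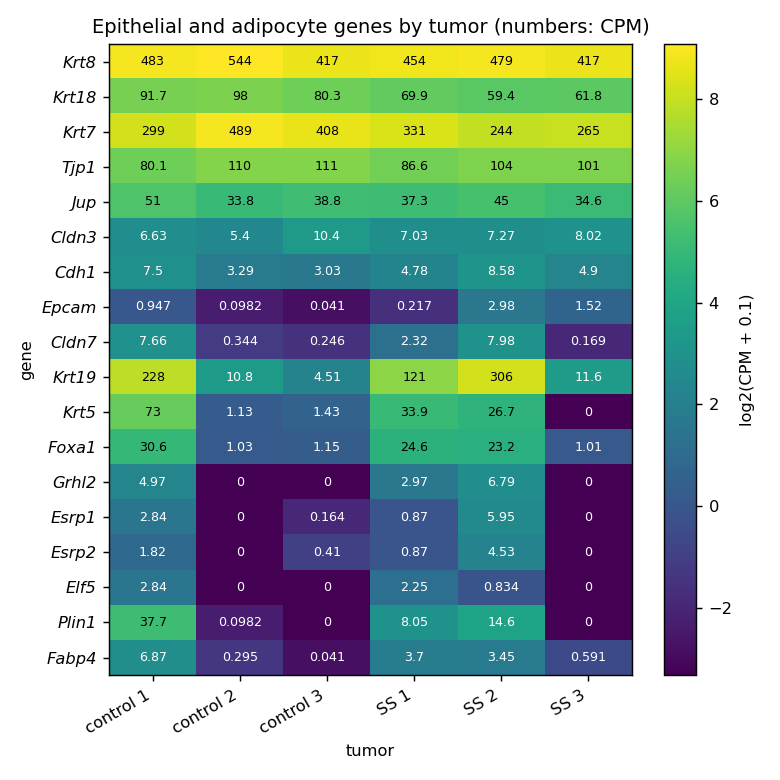
Level of epithelial genes and of the adipocyte genes Plin1 and Fabp4 in each tumor, with color for log2(CPM + 0.1) and the CPM printed in each cell. Krt8, Tjp1, Jup and Cldn3 are steady over the tumors. Cldn7, Krt19, Krt5, Foxa1, Grhl2, Esrp1, Esrp2, Elf5 and Plin1 are high in control 1, SS 1 and SS 2 and low in the others. Epcam does not follow this division.

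Between SS and control tumors, the wider lists held no gene past adjustment by edgeR. At an unadjusted p under 0.05 stood 22.2% of the tested keratins, 21.1% of the EMT transcription factors, 15% of the TGF-beta genes and 0% of each of the 5 other lists, beside 6.36% and a median log2 fold change of -0.0013 over all genes tested. Of the epithelial adhesion and junction genes, 25 of 32 were measured, 19 tested and 0 at an unadjusted p under 0.05 by edgeR, with a median log2 fold change of 0.36. Cldn4, a claudin, had the smallest p of this list and a log2 fold change of -1.01 (SE 0.56). Of 12 tested epithelial transcription and splicing regulators, 0 were at an unadjusted p under 0.05 and the median was 0.40. Klf5, a Krüppel-like factor and per kilobase the highest of these, had a log2 fold change of -0.61 (SE 0.26), and Rbm47, an RNA-binding protein, one of 0.48 (SE 0.25).

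Among the 9 keratins, 0 were higher and 2 lower at an unadjusted p under 0.05, the median being -0.096. Krt18, the partner of Krt8, was at 91.7, 98.0 and 80.3 CPM in control and 69.9, 59.4 and 61.8 CPM in SS tumors. The groups did not overlap, with a log2 fold change of -0.50 (SE 0.12, adjusted p 0.760 by edgeR). Krt7, also a keratin of simple epithelia, had a log2 fold change of -0.51 (SE 0.19, adjusted p 0.771 by edgeR) and overlapping groups.

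Of 36 tested mesenchymal structural and matrix genes, 6 were higher and 30 lower in SS, 0 of them at an unadjusted p under 0.05 by edgeR, and the median log2 fold change was -0.18. Col1a1, a collagen I chain at 7050 to 14494 CPM, had a log2 fold change of -0.099 (SE 0.26). S100a4, a calcium-binding protein of motile cells, was higher in SS at 0.70 (SE 0.30), and the collagen VI chain Col6a2 lower at -0.34 (SE 0.15). SS tumor 1 held the lowest sum of this list, 29169 CPM, where the other 5 tumors ranged from 35668 to 44694 CPM, with Col1a1 alone at 7050 CPM in SS tumor 1. The list of fibroblast markers shares Col1a1, Col3a1, Fap and Pdgfra with it. The 8 fibroblast markers outside it were mostly Gsn (gelsolin), at 855, 419 and 419 CPM in control and 544, 581 and 479 CPM in SS tumors. Without Gsn, the other 7 summed to 78.4, 39.2 and 24.5 CPM in control and 18.3, 53.2 and 33.1 CPM in SS tumors, with SS tumor 1 the lowest here too. Of the 10 fibroblast markers tested, 9 were lower in SS, with 0 at an unadjusted p under 0.05 by edgeR and a median log2 fold change of -0.29. The part of fibroblasts in these sums was not tested.

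Of 19 tested EMT transcription factors, 1 was higher and 3 were lower in SS at an unadjusted p under 0.05, with a median of -0.12. Hmga2, a chromatin protein that induces Snai1 and Twist1 in TGF-beta responses, was at 73.1, 72.3 and 76.7 CPM in control and 88.4, 99.7 and 120 CPM in SS tumors, which is a log2 fold change of 0.47 (SE 0.13, adjusted p 0.771 by edgeR). Sox4 was at 259, 231 and 311 CPM in control and 156, 215 and 178 CPM in SS tumors, which is a log2 fold change of -0.54 (SE 0.16, adjusted p 0.771 by edgeR). The groups did not overlap for either gene. The others at this threshold were Sox9, at -0.95, and Runx2, at -0.30 on the log2 scale.

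Of 20 TGF-beta signaling genes, which carry the best known EMT signal, 1 was higher and 2 were lower at an unadjusted p under 0.05, with a median of -0.11. Smad4, the shared mediator of the pathway, was at 625, 709 and 742 CPM in control and 473, 590 and 551 CPM in SS tumors, with no overlap and a log2 fold change of -0.36 (SE 0.12, adjusted p 0.771 by edgeR). Tgfbi, a matrix protein induced by TGF-beta, had a log2 fold change of 0.26 (SE 0.095), and the repressor Tgif1 one of -0.37. Of 10 tested cadherin partners, 0 were at an unadjusted p under 0.05 by edgeR and 9 were lower, with Ctnnb1 (β-catenin), per kilobase the highest, at 888 to 1327 CPM, Ctnna1 at a log2 fold change of -0.14 (SE 0.082) and Nectin3 at -0.40 (SE 0.21). Of 7 tested cadherins, 0 were at an unadjusted p under 0.05, with Cdh11 at -0.55 (SE 0.39) and Cdh6 at 1.37 (SE 1.00). The summed levels of all 7 cell type lists overlapped between the groups.

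In the promoters, the E-box letters CACCTG and its reverse complement CAGGTG were searched on both strands from 250 bases before to 50 bases after each start. In the Epcam promoter printed above they begin 187 and 19 bases before the start. Of 27025 mouse genes with a RefSeq promoter, 6098 (22.6%) held the motif in at least 1 window. It was found for 14 of 19 epithelial adhesion and junction genes (73.7%) and 4 of 9 epithelial regulators (44.4%), but for 1 of 22 mesenchymal genes (4.55%) and 1 of 14 EMT transcription factors (7.14%), the latter being Snai1. Among the keratins it was found for 4 of 5 genes (80%), namely Krt5, Krt7, Krt8 and Krt18. The TGF-beta genes held it for 1 of 13, the cadherin partners for 3 of 10 and the cadherins for 0 of 2. The windows of Vim, Twist1 and Zeb2 held none. A match describes letters only and says nothing of binding in these tumors.

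**Figure D5:**
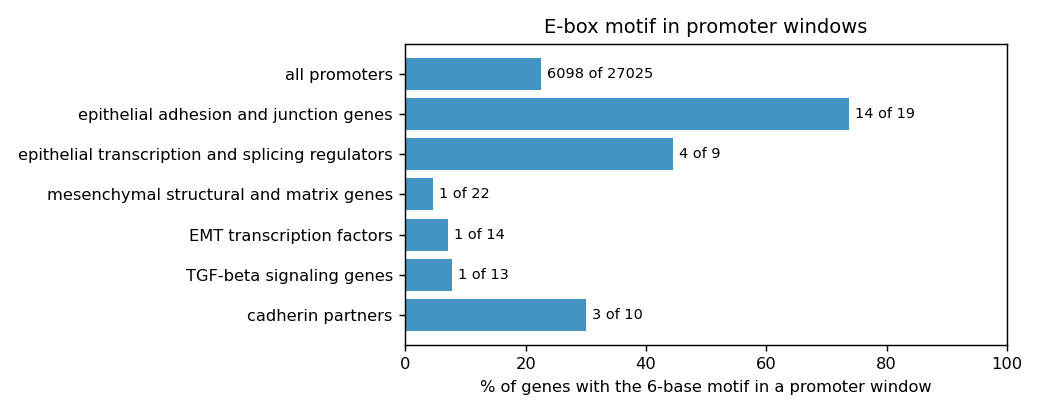
Share of genes, in percent, with CACCTG or CAGGTG in a promoter window of 250 bases before to 50 after the start. Bars are for all genes and for each list except the keratins and the cadherins, with the number of genes beside each bar. The adhesion and junction genes stand at 14 of 19 and the mesenchymal genes at 1 of 22, on either side of all genes at 6098 of 27025.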

How the data were processed

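RNA of 3 control and 3 SS tumors was measured by paired-end sequencing (75 nucleotides per read) of stranded libraries of polyadenylated RNA. What the authors deposited are estimated counts of RefSeq transcripts, not normalized, with entries of very low count removed. The submitters' processing notes name CASAVA 1.8.1, Bowtie2 2.2.5, STAR 2.5.3a and mm10 (GRCm38), without their roles, and the counting tool is not given in the sources used here.

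The 20648 transcripts were added up for each gene symbol and the sums rounded, after 21 symbols that had turned into dates were restored. Totals of 8468914 to 24441522 counts limit the precision of genes with few counts, and the limit for a count of 0 was 3 counts. SS was compared with control by the quasi-likelihood test of edgeR 4.0.16 in R 4.3.3, after filterByExpr, which left 10902 genes, and TMM scaling, and p-values were adjusted over all of them by the Benjamini-Hochberg method. A standard error is the log2 fold change over the square root of F. The procedure was tested on simulated data. Alternatives were quantile normalization with the moderated statistic of limma 3.58.1, which is close to but not the same as the study's test, DESeq2 1.42.0, limma-voom, other scalings and filters, the replicate number as a block and leaving out each tumor. Lengths and exons came from the GENCODE M21 annotation by RefSeq accession and covered 98.7% of genes, and promoters came from RefSeq.

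Named were the 10 genes, and from each of the 8 pathway lists the gene of highest CPM and the 2 of smallest p, while Sox9, Runx2, Tgif1 and genes of the cell type lists were chosen after their values were seen. Members and lists were chosen with earlier results of these data known. No p was computed over a list, and proteins and 1 further splice form comparison are not reported here.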

Additional observations from a re-analysis of the deposited data

How the results depend on the processing

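No gene passed an adjusted p of 0.05 under RLE or upper-quartile scaling, limma-voom, quantile normalization, other filters or leaving out any tumor, whereas DESeq2 gave 35 genes, for a cause that was not tested. Genes at an unadjusted p under 0.05 numbered 643 to 789 under the other fits and 520 to 877 when 1 tumor was left out. The log2 fold change of Cdh2, close to 0, turned to -0.0019 with DESeq2, -0.076 with limma-voom and -0.010 without a filter, and ranged from -0.25 to 0.26 when 1 tumor was left out. Without SS tumor 1, Vim turned to 0.054 and Snai2 to 0.15, and the cause was not tested. Vim ranged from -0.23 to 0.054 and Snai2 from -0.42 to 0.15 when 1 tumor was left out. Cdh1 and Epcam were higher in SS in every fit that gave a value, from 0.083 to 0.93 and from 1.34 to 4.35 on the log2 scale, and Zeb1 was lower in all, from -0.39 to -0.20, its adjusted p from edgeR, DESeq2 and limma lying between 0.578 and 0.989. Under the filter of 1 CPM in 3 tumors Epcam could not be fitted. The balance differed by 0.81 on CPM, 1.20 as mean log2 levels, 0.54 with the wider lists and 0.64 to 1.46 when 1 tumor was left out. With the replicate block 643 genes stood at an unadjusted p under 0.05, 479 of them shared with the fit without it, and 0 past adjustment by edgeR. Tumors of the same number deviated together only weakly (correlations of 0.116, 0.0205 and 0.0767). With no reference for such values, this does not settle whether the numbers pair the tumors. With 3 tumors per group and few counts, the intervals of Epcam, Cdh1 and Cdh2 leave large differences in either direction possible. Snai1, which the filter left out, had log2 fold changes of -0.20 to 0.49 in the 4 fits without 1 tumor that kept it, with standard errors of 0.72 to 0.99.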

Other observations

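The 11 endothelial genes measured summed to 190, 164 and 125 CPM in control and 174, 296 and 170 CPM in SS tumors, so that SS tumor 2 stood above all others and SS tumors 1 and 3 lay within the control range. None passed adjustment by edgeR. Of the 10 tested, 9 had a positive log2 fold change, with a median log2 fold change of 0.40, and 2 were at an unadjusted p under 0.05, beside 6.36% of all genes. Vwf, which encodes von Willebrand factor, was at 18.5, 6.43 and 9.18 CPM in control and 22.5, 35.7 and 19.7 CPM in SS tumors, which is a log2 fold change of 1.20 (SE 0.41, adjusted p 0.771 by edgeR). Esam, an endothelial adhesion molecule, was at 9.40, 9.77 and 7.21 CPM in control and 10.4, 15.7 and 13.4 CPM in SS tumors, which is a log2 fold change of 0.58 (SE 0.23, adjusted p 0.771 by edgeR). The groups did not overlap for either gene, and neither passed adjustment. Cd14, a monocyte and macrophage receptor, was the 1 leukocyte marker of 12 at an unadjusted p under 0.05, with a log2 fold change of -0.59 (SE 0.21), and Adgre1, which encodes the macrophage marker F4/80, had one of 0.50 (SE 0.24, adjusted p 0.792 by edgeR). Of 12 pericyte and smooth muscle genes, 0 were at an unadjusted p under 0.05 by edgeR and the median log2 fold change was 5.8e-05. All 8 skeletal muscle genes had a positive log2 fold change, with a median of 0.86 and 0 at an unadjusted p under 0.05 by edgeR, and they summed to 5752, 11394 and 1141 CPM in control and 345, 23802 and 12659 CPM in SS tumors. SS tumors thus held both the lowest and the highest sum. Tpm2, a tropomyosin of the mesenchymal list that muscle also makes, was at 294, 577 and 234 CPM in control and 128, 972 and 663 CPM in SS tumors, in the same order over the tumors, and the part of muscle in its level was not tested.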
